A study of Mus musculus with 12 samples.

Results

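Basal and luminal cells of the mouse mammary gland were compared at day 2 of lactation, the first days of full milk production. These are 4 of the 12 RNA-seq libraries of the series: the 2 libraries that the labels call basal cells of day 2 lactation and the 2 that they call luminal cells of the same stage. All animals were wild-type female FVB/N mice that received no treatment, and their ages were not given in the sources used here. Cells were sorted by flow cytometry straight from the gland into a luminal and a basal population, and total RNA of each population was made into an Illumina library. The design text gives 2 mice per stage, so each mouse of a stage may have given both its populations, although no label states this. The other 8 libraries, 2 per cell type from virgin glands and 2 per cell type from glands at day 18.5 of pregnancy, were used for the spread between replicates and for the comparison across stages. All luminal libraries were run on lane 1 of the sequencer and all basal libraries on lane 2, so cell type and lane cannot be told apart in any value below.

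The mammary epithelium has an inner luminal layer and an outer basal layer. In lactation the luminal cells of the alveoli make and secrete milk proteins, lactose and fat, under the control of prolactin. The basal layer consists largely of myoepithelial cells, which rest on the basement membrane, contract in response to oxytocin and so push the milk into the ducts. The sorted basal population can also hold the few stem and progenitor cells of that layer, and the luminal population holds cells with and without steroid hormone receptors.

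Promoter windows of milk protein and contractile genes are given first, since these are the gene groups that lay farthest apart between the layers. Milk protein genes are textbook targets of STAT5, the factor that prolactin activates, which binds the GAS motif TTCNNNGAA. Genes of the smooth muscle contractile apparatus are textbook targets of SRF, which binds the CArG box (CC, then A or T throughout, then GG). Promoters were taken from RefSeq (GRCm38.p6), from 250 bases before to 50 bases after each start site, and both strands were searched. The GAS motif was found in 5 of the 11 promoters of the 10 milk protein genes with a promoter (45.5%), against 8.30% of all 32851 promoters. The CArG box was found in 2 of the 14 promoters of 13 contractile genes (14.3%), against 1.63% of all promoters. Among all genes called in lactation, 1.70% of the promoters of genes higher in basal cells and 0.914% of those of genes higher in luminal cells held a CArG box. The share over the promoters of all genes tested was 1.34%. For the GAS motif these shares were 6.85% and 6.99%, near the 7.05% of the promoters of all genes tested. Of the 24 promoters of milk fat genes 1 held the GAS motif (4.17%). The 5 windows below are shown because they hold such a motif in genes whose levels separate the layers, and the capitals mark 1 motif in each. Csn1s1, Csn2 and Glycam1 are milk protein genes (chr5:87666068-87666156, plus strand; chr5:87699470-87699558, minus strand; chr15:103565178-103565266, minus strand). Myl9 encodes a myosin light chain and Srf the factor itself (chr2:156775263-156775352, plus strand; chr17:46556195-46556284, minus strand).
Csn1s1: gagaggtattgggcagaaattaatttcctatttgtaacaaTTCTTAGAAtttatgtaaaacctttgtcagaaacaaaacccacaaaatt
Csn2: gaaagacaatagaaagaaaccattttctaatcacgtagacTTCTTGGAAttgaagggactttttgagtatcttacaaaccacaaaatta
Glycam1: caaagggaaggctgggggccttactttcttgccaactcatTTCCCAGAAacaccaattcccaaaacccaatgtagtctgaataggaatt
Myl9: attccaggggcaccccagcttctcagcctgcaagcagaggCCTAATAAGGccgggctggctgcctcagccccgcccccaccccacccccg
Srf: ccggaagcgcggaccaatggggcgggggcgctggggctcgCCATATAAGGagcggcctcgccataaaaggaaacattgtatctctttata
A matching stretch of letters is a description of the window and says nothing of binding in these cells. The marked box in the Srf window starts 82 bases before the start site of that promoter, and a further box, in lower case, 62 bases before it. This window lies inside the full span of Srf (chr17:46546838-46558267). The motif of Csn2 starts 93 bases before the start site of its own promoter.

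The basal libraries held 21529331 and 20015386 counts and the luminal libraries 24723827 and 24657293, and totals of the 12 libraries ran from 20015386 to 24723827. In the luminal libraries the 14 genes of the milk protein list took 53.2% and 52.0% of all counts, against 0.598% and 0.589% in the basal libraries. The counts left for other luminal genes were therefore fewer, and libraries were scaled for composition by the TMM method of edgeR. Levels are given as CPM, the usual depth-normalised count unit, after that scaling, with the value of each library, basal before luminal. A difference is the log2 of basal over luminal. A gene is called when the adjusted p of edgeR's quasi-likelihood test is below 0.05. The standard error (SE) was derived as the difference, without its sign, over the square root of that test's F statistic.

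**Figure D1:**
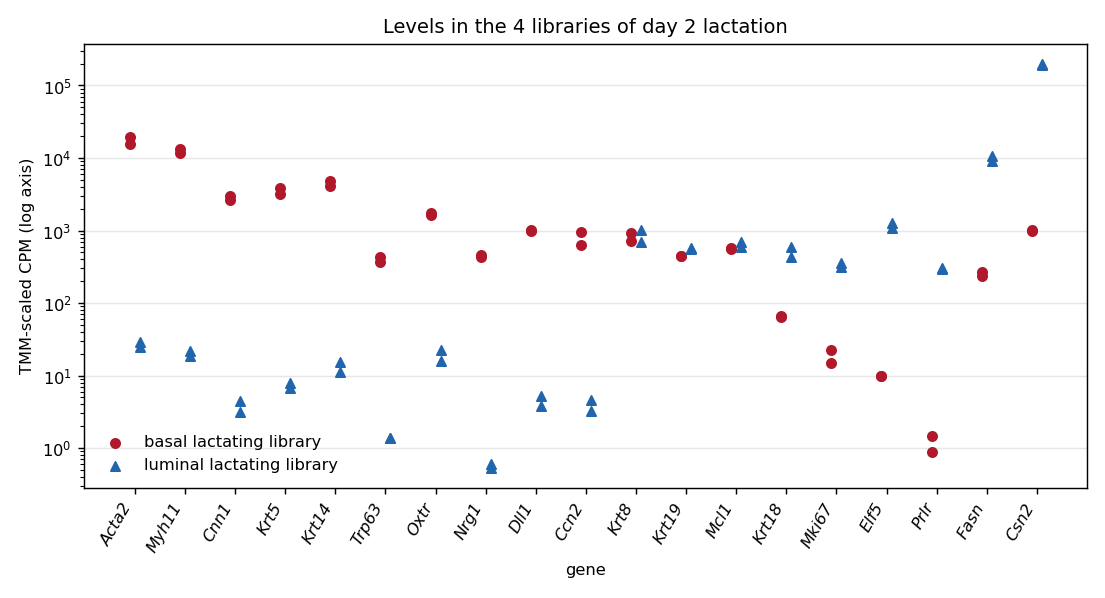
Level of 19 genes (TMM-scaled CPM, log axis) in each of the 4 libraries of day 2 lactation; circles are the 2 basal libraries and triangles the 2 luminal ones. Acta2 is at 19263 and 15411 in the basal and 24.4 and 29.01 in the luminal libraries, Krt8 overlaps between the cell types, and Csn2 is at 1002 and 999 in the basal libraries, far below the luminal ones.

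The labels were first set against the fixed markers of each layer. All 8 basal markers were higher in the basal libraries, with a summed level of 48244 and 41066 CPM there and 92.6 and 102 in the luminal libraries. The 6 markers of milk-making luminal cells were all lower in basal cells. Of the 7 general luminal markers, Krt18, Epcam, Elf5, Gata3 and Ehf were lower in basal cells and Krt8 and Krt19 were not called. With scaling by library size alone Gata3 turned to 0.21 without a call.

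Of 15969 genes tested, 11914 (74.6%) were called, 6253 higher in basal cells (39.2%) and 5661 higher in luminal cells (35.4%). At least 2-fold differences made up 4559 genes higher in basal cells (28.5%) and 3627 higher in luminal cells (22.7%). Differences past 32-fold were found for 1054 genes on the basal side and 497 on the luminal side. Scaling by library size alone, without regard to the milk protein counts, moved the median of all genes by 0.99 on the log2 scale and gave 10205 genes higher in basal and 2529 higher in luminal cells. All counts below are therefore read against a median log2 difference of 0.08 over all genes and a background of 74.6% called, and a list's counts under library size alone are given where they turn its balance. The median SE was 0.19 on the log2 scale, with 2 libraries per group, and nothing in the labels says that libraries of a group are separate animals beyond the design text.

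**Figure D2:**
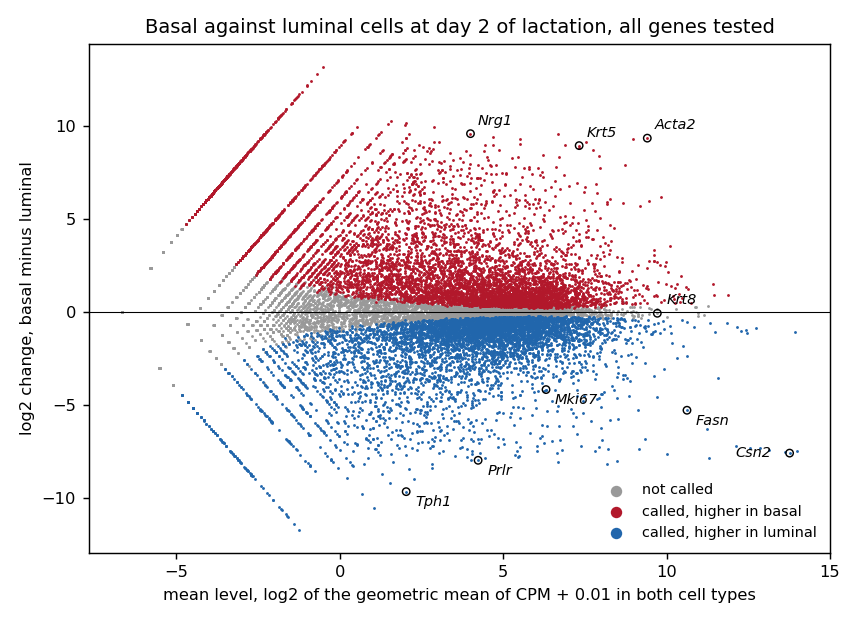
Log2 difference, basal minus luminal, of each of the 15969 genes tested against its mean level on the log2 scale (CPM + 0.01), in lactation. Genes called higher in basal cells are red and those called higher in luminal cells blue; Acta2 lies at 9.34, Csn2, with the highest levels, at -7.59, and Krt8 at -0.07.

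The basal cells were set apart first by smooth muscle genes. All 17 genes of the contractile apparatus were higher in basal cells, with a median log2 difference of 7.91. Acta2, which encodes smooth muscle actin (Entrez 11475, chr19:34240336-34255585), was at 19263 and 15411 CPM in the basal and 24.4 and 29.01 CPM in the luminal libraries, a log2 difference of 9.34 (SE 0.33) with an adjusted p of 8.07e-11. Both basal libraries lay far above both luminal libraries. Absence of overlap is common here, since the basal and luminal libraries did not overlap in 87.6% of all genes tested. Per length, Acta2 was the highest of all genes in basal cells, at 9740 CPM per kb. Smooth muscle myosin heavy chain, Myh11, stood at 13284 and 11753 CPM against 18.3 and 21.7 CPM (log2 9.29 (SE 0.33)). Calponin, Cnn1, an actin-binding protein of smooth muscle, had 3007 and 2648 CPM in basal and 3.13 and 4.39 CPM in luminal libraries (log2 9.55 (SE 0.29)). For both genes the 2 libraries of a layer lay close together and the layers did not overlap. Myl9, whose promoter window is printed above, was at 2802 and 2444 and 3.74 and 6.82 CPM (log2 8.95 (SE 0.28)). Srf was also present in luminal cells, at 63.4 and 58.2 CPM against 296 and 300.4 CPM in basal cells (log2 2.29 (SE 0.12)). Myl9 and Srf were picked after their values were seen.

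Keratins and the lineage factor of the basal layer followed the same split. Of the 16 genes of the basal identity list, 15 were higher in basal cells (median log2 6.81) and 1 was lower. Krt5, the type II keratin of basal cells, was at 3899.8 and 3212 CPM in the basal and 7.79 and 6.66 CPM in the luminal libraries (log2 8.94 (SE 0.22)). Its partner Krt14 was at 4888 and 4051 against 15.4 and 11.1 CPM (log2 8.39 (SE 0.38)). Trp63, the transcription factor that maintains the basal state, had 366 and 429.6 CPM in basal and 1.38 and 1.36 CPM in luminal cells (log2 8.18 (SE 0.27)). In each of the 3 genes both basal libraries stood above both luminal libraries without overlap. The gene that went against the list was Tspan8, a tetraspanin of the cell surface, at 1.39 and 1.65 CPM in basal and 8.02 and 10.5 CPM in luminal cells (log2 -2.60 (SE 0.30)).

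Genes of the oxytocin response were mostly higher in basal cells. Of 20 genes from the oxytocin receptor to calcium release and removal, 14 were higher in basal cells, 4 higher in luminal cells and 2 not called (median 2.21). Oxtr, the oxytocin receptor (Entrez 18430, chr6:112473683-112491035), was at 1613 and 1729 CPM in basal and 16.05 and 22.4 CPM in luminal libraries (log2 6.44 (SE 0.29), adjusted p 5.89e-10). Both basal libraries stood far above both luminal libraries. Atp2b4, a calcium pump of the plasma membrane, was at 329 and 270.3 against 1.53 and 1.29 CPM (log2 7.73 (SE 0.18)). Kcnmb1, the beta subunit of the calcium-activated potassium channel of smooth muscle, was at 139.9 and 124 against 0.229 and 0.454 CPM (log2 8.57 (SE 0.24)). Cacna1c, the pore of the L-type calcium channel, differed by 4.47 (SE 0.15). Luminal cells were higher in Orai1, the pore of store-operated calcium entry, with 215 and 217 CPM against 9.502 and 10.2 CPM in basal cells (log2 -4.46 (SE 0.15)). Of the inositol trisphosphate receptors that release stored calcium, Itpr2 (-2.13 (SE 0.18)) and Itpr3 (-1.35 (SE 0.13)) were also higher in luminal cells.

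Basal cells had more RNA of the matrix on which they rest and of the receptors that bind it. In the basement membrane list 14 of 17 genes were higher in basal cells, 2 were lower and 1 was not called (median 3.61). Lama3, a laminin alpha chain, was at 1391 and 1358 CPM in basal and 4.28 and 3.71 CPM in luminal cells (log2 8.42 (SE 0.38)). The type IV collagen chain Col4a1 was at 2619.5 and 2403 against 35.5 and 39.8 CPM (log2 6.06 (SE 0.19)), and its neighbour Col4a2 differed by 6.72 (SE 0.18). Col7a1, the collagen of anchoring fibrils, differed by 7.41 (SE 0.26). Each of these genes had no overlap between the layers. Another laminin alpha chain, Lama5, went the other way, at 165 and 182 CPM in basal and 352 and 347 CPM in luminal cells (log2 -1.01 (SE 0.16)), which became -0.01 and uncalled under library size alone. The nidogen gene Nid2 was near the threshold at -0.47 and lost its call when any of the 4 libraries was left out (-0.39 to -0.57).

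Of 21 integrins and genes of adhesion to matrix, 19 were higher in basal cells and 2 were not called (median 2.36). Itgb1, the common beta 1 subunit, was at 1697 and 1383 CPM in basal and 308 and 292 CPM in luminal cells (log2 2.36 (SE 0.15)). Among its partners, Itga2, a subunit of a collagen receptor, was at 53.3 and 50.2 against 0.688 and 0.454 CPM (log2 6.49 (SE 0.30)). Itga9 was at 82.6 and 78.1 against 0.764 and 0.454 CPM (log2 7.03 (SE 0.25)). Itga2 and Itga9 were thus below 1 CPM in luminal libraries, while luminal Itgb1 was at 308 and 292 CPM. Itga5, of the fibronectin receptor, differed by 6.01 (SE 0.31). Hemidesmosomes anchor basal cells to the basement membrane, and their collagen Col17a1 differed by 7.38 (SE 0.22) and their integrin subunit Itgb4 by 1.22 (SE 0.18).

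**Figure D3:**
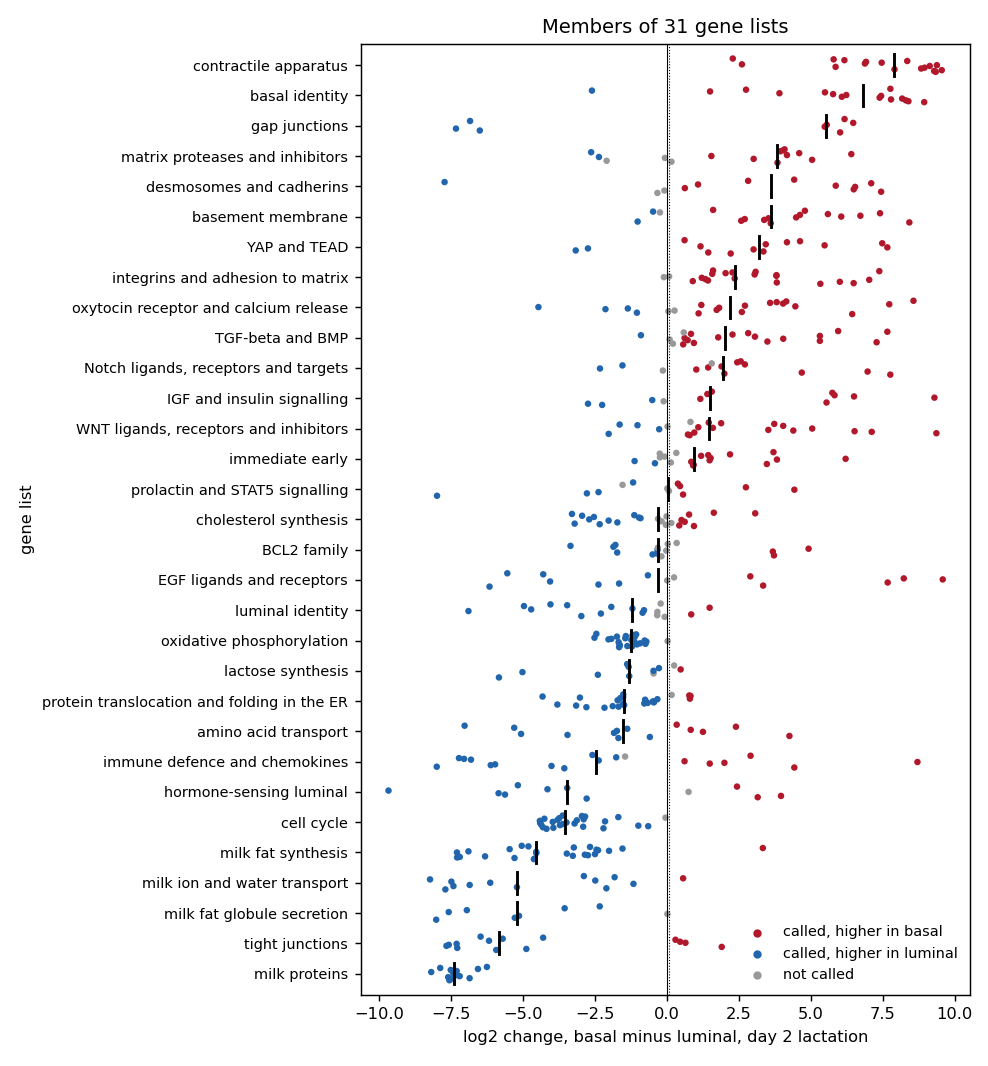
Log2 difference, basal minus luminal, of every tested member of 31 gene lists in lactation; each dot is a gene, red where called higher in basal cells, blue where called higher in luminal cells and grey where not called, and the black bar is the list's median. The dotted line is the median of all genes (0.08); the contractile list lies highest, at 7.91, and the milk protein list lowest, at -7.40.

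Cell contacts were of different kinds in the 2 layers. Of 12 genes of desmosomes and cadherins 9 were higher in basal cells, 1 was lower and 2 were not called. The list's fitted median was 3.63, and 2.48 with Dsg3 at the bound that 3 counts allow. Cdh3, the cadherin of basal epithelia, was at 464 and 439 CPM in basal and 3.13 and 2.04 CPM in luminal cells (log2 7.45 (SE 0.17)). Plakophilin genes split, with Pkp1 at 273 and 229 against 1.99 and 1.67 CPM (log2 7.10 (SE 0.28)) and Pkp2 at 0.224 and 0.322 against 62.5 and 54.4 CPM (log2 -7.72 (SE 0.23)). The layer that was high in Pkp1 was the layer that was low in Pkp2.

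Tight junctions, which seal the milk space between luminal cells, were a luminal feature. Of 14 genes 10 were higher in luminal cells and 4 higher in basal cells (median -5.81). Claudin 7, Cldn7, was at 252 and 216 CPM in luminal and 1.08 and 1.24 CPM in basal libraries (log2 -7.65 (SE 0.29)). Claudin 8, Cldn8, was at 270.1 and 267 against 1.57 and 1.24 CPM (log2 -7.57 (SE 0.28)). Cldn4 differed by -7.28 (SE 0.32) and occludin, Ocln, by -7.30 (SE 0.23). Cldn7 and Cldn8 were below 2 CPM in both basal libraries. The scaffold gene Tjp1 was on the basal side at 0.65 (SE 0.12). Without luminal library 2, or without basal library 1, 2 of the 4 genes higher in basal cells were no longer called. Cldn5, a claudin of blood vessels, was on the basal side at 1.91 (SE 0.37), as were the other endothelial markers given below.

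Gap junction genes also split by layer, with 5 of 8 higher in basal and 3 higher in luminal cells. The fitted median was 5.52, or 3.77 with Gjb5, which had no luminal count, at its bound. Connexin 43, Gja1, was at 391 and 326 CPM in basal and 5.196 and 5.83 CPM in luminal cells (log2 6.02 (SE 0.19)). Connexin 26, Gjb2, was at 161 and 160.4 CPM in luminal and 0.717 and 1.29 CPM in basal cells (log2 -7.32 (SE 0.35)). Connexin 30, Gjb6, differed by -6.83 (SE 0.24) and connexin 32, Gjb1, by -6.49 (SE 0.29). The libraries of the layers did not overlap in any of these 4 genes, of which Gja1 was basal and the other three luminal.

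Milk protein genes were the highest genes of the luminal cells and all 14 were lower in basal cells (median log2 -7.40). Csn2, beta-casein (Entrez 12991, chr5:87692619-87699429), was at 196810.0 and 189430.0 CPM in luminal and 1002 and 999 CPM in basal libraries, a log2 difference of -7.59 (SE 0.43) with an adjusted p of 4.72e-09. Wap, whey acidic protein, was at 96986 and 90808 against 603 and 587 CPM (log2 -7.30 (SE 0.39)). Lalba, alpha-lactalbumin, the regulator of lactose synthase, was at 7699 and 7229 against 46.1 and 42.8 CPM (log2 -7.39 (SE 0.39)). The replicates lay close together, and these 3 genes were lower in basal cells by nearly the same factor. The basal level of these 14 genes was 0.345 to 1.32% of the luminal level, with a median of 0.590%, and 12 of the 14 were at most 1%. Whether this small share is RNA of luminal cells in the basal gate or RNA made by basal cells was not tested. Ltf, lactoferrin, had -8.18 (SE 0.59) and Spp1, osteopontin, -7.87 (SE 0.26). Per length, Csn1s2a was the highest luminal gene at 235848 CPM per kb (log2 difference -7.50 (SE 0.34)), and reads of its close paralog Csn1s2b may have been split with it. Csn1s2a was picked after its values were seen.

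The genes that make milk fat were nearly all higher in luminal cells, 24 of 25, with 1 higher in basal cells (median -4.53). Fasn, fatty acid synthase, was at 9224 and 10508 CPM in luminal and 266 and 239.5 CPM in basal libraries (log2 -5.29 (SE 0.20)). Lpl, the lipase that takes up fatty acids from lipoproteins, was at 2947 and 3207 against 19.9 and 19.5 CPM (log2 -7.29 (SE 0.24)). Olah, the thioesterase that ends synthesis at medium chain length in the gland, was at 609 and 529 against 4.08 and 3.22 CPM (log2 -7.28 (SE 0.36)). Among the 3 genes the basal level of Fasn was the least reduced. Srebf1, the lipogenic transcription factor, differed by -2.67 (SE 0.27), with luminal libraries at 641 and 1128 CPM that were farther apart than the basal ones at 128 and 151. Dgat2, one of the enzymes for the last step of triglyceride synthesis, was the exception, at 35.99 and 41.7 CPM in basal and 4.202 and 3.48 CPM in luminal cells (log2 3.34 (SE 0.16)).

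Fat leaves luminal cells as membrane-coated globules, and 7 of the 8 genes of that list were higher in luminal cells (median -5.20). Btn1a1, butyrophilin, the main membrane protein of the globule, was at 5403 and 5998 CPM in luminal and 21.8 and 22.5 CPM in basal cells (log2 -8.01 (SE 0.24)). Its binding partner Xdh, xanthine dehydrogenase, was at 3127 and 3807 against 96.5 and 82.1 CPM (log2 -5.28 (SE 0.30)). Cidea, a lipid droplet protein, differed by -7.57 (SE 0.27) and the mucin Muc1 by -6.94 (SE 0.23). The lipid droplet coat gene Plin3, named after its values were seen, was the member that was not called (0.02 (SE 0.15)), with basal libraries at 45.9 and 47.8 and luminal libraries at 51.04 and 41.4 CPM.

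For lactose, 8 of 11 genes were higher in luminal cells, 1 higher in basal cells and 2 not called (median -1.30), a balance that became 5 and 5 under library size alone. B4galt1, the galactosyltransferase of lactose synthase, was at 2094 and 2529.7 CPM in luminal and 43.4 and 37.9 CPM in basal libraries (log2 -5.83 (SE 0.21)). Slc35a2, the transporter that brings the galactose donor into the Golgi, differed by -2.39 (SE 0.11). Hexokinase Hk2, an entry step of sugar metabolism, differed by -1.38 (SE 0.12). Galt, of galactose breakdown, was on the basal side at 0.48 (SE 0.11).

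Transport into milk followed the luminal side as well. Of 13 tested genes of ion and water transport, 12 were higher in luminal cells (median -5.20). Atp2b2, which pumps calcium across the apical membrane into milk, was at 511 and 661 CPM in luminal and 3.45 and 2.21 CPM in basal cells (log2 -7.69 (SE 0.23)). Slc34a2, a phosphate transporter, was at 1293 and 1588 against 7.66 and 9.28 CPM (log2 -7.41 (SE 0.23)). Kcnn4, a calcium-activated potassium channel, differed by -7.48 (SE 0.35). The gene on the basal side was Slc12a2, the sodium-potassium-chloride cotransporter (0.57 (SE 0.19)), which lost its call when any 1 of the 4 libraries was left out (0.51 to 0.59). Calcium pumps thus divided between layers, Atp2b2 to luminal and Atp2b4 to basal cells.

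Amino acid transporters were divided, with 9 of 14 genes higher in luminal and 5 higher in basal cells (median -1.53). Slc7a8, a carrier of neutral amino acids, was at 36.4 and 31.8 CPM in luminal and 0.986 and 0.735 CPM in basal cells (log2 -5.30 (SE 0.31)). On the basal side, the glutamine carrier Slc1a5 was at 81.8 and 71.4 against 3.97 and 4.01 CPM (log2 4.26 (SE 0.17)). Slc38a2, another carrier of small neutral amino acids, was at 999 and 1152 against 470.3 and 430.0 CPM (log2 1.26 (SE 0.13)). Slc7a11, the cystine carrier, differed by 2.40 (SE 0.23).

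The secretory machinery was moderately higher in luminal cells. Of 26 genes of protein translocation and folding in the endoplasmic reticulum, 22 were higher in luminal cells, 3 higher in basal cells and 1 not called (median -1.50); under library size alone these became 14 and 9. Xbp1, the transcription factor of secretory cells, was at 1135 and 1272 CPM in luminal and 65.8 and 55.2 CPM in basal libraries (log2 -4.31 (SE 0.17)). Ssr4, a subunit of the translocon-associated complex, was at 529 and 515 against 37.6 and 37.3 CPM (log2 -3.80 (SE 0.10)), and Ssr2 of the same complex differed by -3.15 (SE 0.12). The members on the basal side were Atf4 (0.83 (SE 0.10)), Ddit3 (0.78 (SE 0.19)) and Dnajb9 (0.80 (SE 0.14)). These encode 2 transcription factors and a chaperone of the response to unfolded protein, not parts of the translocon. The chaperone Hspa5 was close between layers, at 1212 and 1193 CPM in basal and 1686 and 1601 CPM in luminal cells (log2 -0.45 (SE 0.13)), and its sign turned to 0.54 under library size alone.

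Genes of oxidative phosphorylation encoded in the nucleus were higher in luminal cells in 24 of 25 cases (median -1.23), with Sdhc, named after its values were seen, not called (0.03 (SE 0.09)). Under library size alone 12 were higher in luminal and 3 in basal cells. Cox5a, a subunit of cytochrome c oxidase, was at 227 and 229 CPM in luminal and 42.04 and 37.97 CPM in basal libraries (log2 -2.51 (SE 0.11)). Cyc1, cytochrome c1, was at 251 and 252 against 69.9 and 62.7 CPM (log2 -1.92 (SE 0.12)). The 2 luminal libraries agreed within a few CPM and lay above both basal libraries.

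Cholesterol genes showed no common direction, with 11 of 23 higher in luminal cells, 7 higher in basal cells and 5 not called (median -0.30). Under library size alone 8 were higher in luminal and 12 in basal cells, and without basal library 1 the counts were 13 and 4. Mvd, of the mevalonate pathway, was at 79 and 89.1 CPM in luminal and 8.96 and 9.33 CPM in basal cells (log2 -3.20 (SE 0.17)). Dhcr7, of the last steps, differed by -2.94 (SE 0.15), and Insig1, the sterol sensor that holds back the pathway, by -3.29 (SE 0.21). The transcription factor of the pathway, Srebf2, was higher in basal cells at 479 and 489 against 158 and 154 CPM (log2 1.63 (SE 0.12)). Hmgcs1, an early enzyme, was also on the basal side (0.94 (SE 0.15)). The sterol response element TCACCCCAC was found in 1 of 19 promoters of 16 of these genes (5.26%), that of Hmgcs1, against 0.551% of all promoters.

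Of the keratins that name the luminal lineage, Krt18 was higher in luminal cells in lactation, and Krt8 and Krt19 were not called. Of 17 genes of the luminal identity list, 11 were higher in luminal cells, 2 higher in basal cells and 4 not called (median -1.19), and under library size alone 8 and 6 were. Krt8, the type II luminal keratin (Entrez 16691, chr15:101996711-102004342), was at 921 and 720.2 CPM in basal and 1026 and 701 CPM in luminal libraries, a log2 difference of -0.07 (SE 0.18) with an adjusted p of 0.73. The libraries of the layers overlapped. Krt19, singled out after its values were seen, was at 449 and 449 against 574 and 556 CPM (log2 -0.33 (SE 0.15), adjusted p 0.06). The luminal libraries were above the basal ones, and Krt19 became called with the replicate number as a block, where its log2 difference was -0.33 with an adjusted p of 0.035, and also with relative log expression scaling (-0.36), library size without milk proteins (-0.40), DESeq2 (-0.36) and lactating libraries only (-0.34). Under library size alone both keratins were called on the basal side, Krt8 at 0.92 and Krt19 at 0.66. Krt18, the partner of Krt8, kept the luminal side, at 587 and 438 CPM against 66.1 and 64.9 CPM in basal cells (log2 -2.97 (SE 0.17)).

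Transcription factors of the luminal lineage differed in size and direction. Elf5, the factor of the alveolar lineage, was at 1078 and 1254 CPM in luminal and 9.73 and 9.97 CPM in basal libraries (log2 -6.89 (SE 0.22)). Ehf, a related factor, was at 164 and 150.3 against 4.62 and 7.4 CPM (log2 -4.71 (SE 0.25)). Kit, the receptor of luminal progenitors, differed by -4.96 (SE 0.39) and the adhesion gene Epcam by -2.29 (SE 0.18). Gata3 had the smallest difference of the named luminal factors, -0.79 (SE 0.16). Grhl2, a factor of epithelial cells, was higher in basal cells (1.49 (SE 0.11)). Krt7 was called on the basal side at 0.85 (SE 0.36) but lost its call without luminal library 1 (0.92), luminal library 2 (0.71) or basal library 1 (0.52), and also with relative log expression scaling (0.82), library size without milk proteins (0.77), DESeq2 (0.82) and the carry-over subtraction described below (0.84).

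Receptors for the lactogenic and ovarian hormones differed in direction. Prlr, the prolactin receptor (Entrez 19116, chr15:10177238-10349190), was at 293 and 305 CPM in luminal and 1.48 and 0.873 CPM in basal libraries (log2 -7.98 (SE 0.26), adjusted p 4.46e-11). Its signal carrier Stat5a was at 244 and 339.7 against 42 and 43.3 CPM (log2 -2.77 (SE 0.15)), and Stat5b differed by -2.37 (SE 0.14). The receptor was almost confined to the luminal libraries, whereas the STAT5 genes were present in both layers. The feedback inhibitors went the other way, with Socs1 at 37.5 and 46.5 CPM in basal and 1.99 and 1.89 CPM in luminal cells (log2 4.43 (SE 0.19)) and Socs3 at 1901 and 2195 against 228 and 381 CPM (log2 2.75 (SE 0.25)). In all, 5 of the 12 genes of this pathway were higher in basal cells, 4 higher in luminal cells and 3 not called (median 0.05). The number on the basal side was 2 without basal library 1 and 3 without luminal library 1 or basal library 2.

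Of 11 tested genes of hormone-sensing luminal cells, 7 were higher in luminal cells, 3 higher in basal cells and 1 not called (median -3.46). Esr1, the estrogen receptor, was at 33.1 and 35.98 CPM in luminal and 5.15 and 4.87 CPM in basal cells (log2 -2.78 (SE 0.24)). Its pioneer factor Foxa1 was at 17.9 and 13.9 against 0.224 and 0.414 CPM (log2 -5.62 (SE 0.24)), and the co-regulator Cited1 differed by -5.84 (SE 0.18). Pgr, the progesterone receptor (Entrez 18667, chr9:8898900-8968611), lay on the basal side, at 28.5 and 27.9 CPM in basal and 3.36 and 2.95 CPM in luminal libraries (log2 3.16 (SE 0.22), adjusted p 2.77e-08). Estrogen and progesterone receptors were therefore highest in different layers. Tbx3, a transcription factor, was also on the basal side (2.44 (SE 0.25)). Cell numbers and RNA per cell cannot be told apart in sorted bulk RNA, here or in any other gene.

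Ligands and receptors of the EGF family were arranged across the layers. Of 14 genes, 5 were higher in basal cells, 7 higher in luminal cells and 2 not called (median -0.32), and 7 and 5 under library size alone. Among the ligands, Nrg1, neuregulin 1 (Entrez 211323, chr8:31807452-32891609), was at 457 and 428 CPM in basal and 0.535 and 0.606 CPM in luminal libraries (log2 9.58 (SE 0.26), adjusted p 1.93e-11). Nrg2 differed by 8.23 (SE 0.30), and Ereg, epiregulin, by 7.67 (SE 0.70). Egf itself was a luminal gene, at 81.4 and 81.1 CPM in luminal and 1.17 and 1.103 CPM in basal cells (log2 -6.16 (SE 0.17)). Among the receptors, Egfr was higher in basal cells, at 173 and 177 against 22.8 and 24.01 CPM (log2 2.90 (SE 0.15)). Erbb3, which binds neuregulins, was higher in luminal cells, at 60.2 and 45.6 against 3.14 and 2.25 CPM (log2 -4.29 (SE 0.20)). Erbb4, the other neuregulin receptor and named after its values were seen, was at 7.18 and 3.86 against 0.0896 and 0.138 CPM (log2 -5.54 (SE 0.48)). Neuregulin RNA was thus high in the layer where its receptors were low, and Egf RNA in the layer where Egfr was low.

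Notch ligands were basal genes. Of 14 Notch genes, 10 were higher in basal cells, 2 higher in luminal cells and 2 not called (median 1.95). Dll1 was at 984 and 1002 CPM in basal and 3.82 and 5.302 CPM in luminal libraries (log2 7.76 (SE 0.17)), although 20.5% of its exon bases overlap another gene. Jag2 was at 269 and 297 against 2.06 and 2.42 CPM (log2 6.97 (SE 0.21)), and Jag1 at 172 and 204 against 7.26 and 7.27 CPM (log2 4.69 (SE 0.14)). All 3 ligands were separated without overlap. Of the receptors, Notch1 was not called (-0.13 (SE 0.16)), although it was called at -0.44 without basal library 2 and turned to 0.87 under library size alone. Notch3 was higher in luminal cells, at 96.7 and 108 against 22.1 and 18.8 CPM (log2 -2.32 (SE 0.21)). Hes1, a Notch target, was also higher in luminal cells, at 90.5 and 101 against 27.4 and 38.3 CPM (log2 -1.54 (SE 0.21)).

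In the WNT list 15 of 21 genes were higher in basal cells, 4 higher in luminal cells and 2 not called (median 1.46). The ligand Wnt6 was at 99.6 and 108 CPM in basal and 0.153 and 0.151 CPM in luminal libraries (log2 9.36 (SE 0.29)). Wnt11 was at 48.6 and 36.3 against 0.306 and 0.606 CPM (log2 6.52 (SE 0.32)), and the receptor Fzd7 at 250.1 and 318 against 8.79 and 8.33 CPM (log2 5.05 (SE 0.24)). Both ligands were close to absent from luminal cells, while Fzd7 kept a low luminal level. The ligand Wnt5b was higher in luminal cells (-2.02 (SE 0.15)). The secreted inhibitor Sfrp1 was also on the luminal side at -1.02 (SE 0.27), and became uncalled at -0.02 under library size alone.

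TGF-beta and BMP genes were higher in basal cells in 16 of 20 cases, lower in 1 and not called in 3 (median 2.03). Ccn2, a matricellular target of TGF-beta and of YAP, was at 638 and 949 CPM in basal and 3.21 and 4.62 CPM in luminal libraries (log2 7.66 (SE 0.33)), with 23.2% of its exon bases shared with another gene. Thbs1, thrombospondin 1, which activates latent TGF-beta, was at 6076 and 5116 against 96.5 and 84.2 CPM (log2 5.95 (SE 0.35)). Ltbp2, a latent TGF-beta binding protein, differed by 5.32 (SE 0.38). The signal carrier Smad3 was on the luminal side at -0.90 (SE 0.13), and turned to 0.10 without a call under library size alone.

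The YAP and TEAD list held 12 of 14 genes higher in basal cells and 2 higher in luminal cells (median 3.19). Yap1, the co-activator, was at 407 and 336 CPM in basal and 80.5 and 79 CPM in luminal cells (log2 2.22 (SE 0.12)). Its DNA-binding partner Tead1 was at 333 and 273 against 31.2 and 27.9 CPM (log2 3.36 (SE 0.24)); Yap1 and Tead1 were named after their values were seen. The family of partners split, with Tead2 at 53.6 and 61.1 CPM in luminal and 5.33 and 7.49 CPM in basal cells (log2 -3.16 (SE 0.20)) and Tead4 at -2.74 (SE 0.35). Axl, a target and receptor kinase, differed by 7.48 (SE 0.18).

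Proliferation genes were higher in luminal cells. Of 26 cell cycle genes, 25 were higher in luminal cells and 1, Pcna, was not called (median -3.55; 23 and 1 on the basal side under library size alone). Mki67, the proliferation marker (Entrez 17345, chr7:135689784-135716450), was at 358 and 318 CPM in luminal and 22.5 and 14.8 CPM in basal libraries (log2 -4.18 (SE 0.21), adjusted p 1.65e-09). Birc5, survivin, was at 27.6 and 19.8 against 1.17 and 1.06 CPM (log2 -4.41 (SE 0.25)), and the mitotic cyclin Ccnb1 at 17.3 and 11.6 against 0.762 and 0.689 CPM (log2 -4.30 (SE 0.37)). Mcm5, of the replication helicase, was at 87.03 and 83.3 against 4.98 and 3.95 CPM (log2 -4.25 (SE 0.40)). The basal libraries were low in all 4 genes. Pcna, the sliding clamp of replication and repair, was at 111 and 119 CPM in basal and 121 and 116 CPM in luminal cells (log2 -0.04 (SE 0.15)), with overlapping libraries, and turned to 0.95 under library size alone. Mcm5 and Pcna were named after their values were seen.

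Genes of the BCL2 family, which set the threshold for cell death, differed singly. Of 15 tested genes, 3 were higher in basal cells, 7 higher in luminal cells and 5 not called (median -0.31), against 11 and 2 under library size alone. The number on the luminal side was 4 without luminal library 1 or without basal library 1. Mcl1, a survival gene, was at 564 and 571 CPM in basal and 702 and 587 CPM in luminal libraries, and its difference of -0.18 (SE 0.13) was not called (adjusted p 0.2; 0.81 and called under library size alone). Bcl2, another survival gene, was at 16.9 and 17.4 against 1.299 and 1.29 CPM (log2 3.72 (SE 0.23)). Bcl2l11, which encodes the death-promoting BIM, was at 169 and 158 against 12.1 and 13.3 CPM (log2 3.68 (SE 0.14)). Bok, a further pro-death member, differed by 4.93 (SE 0.23). The 3 members on the basal side thus held both survival and death genes. Bik, a death gene at a few CPM, was on the luminal side (-3.34 (SE 0.34)), and Bcl2l1, which encodes BCL-XL, was at -0.49 (SE 0.16) and lost its call without luminal library 1 (-0.36) or basal library 1 (-0.43); under library size alone it turned to 0.50.

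The genes with the largest fitted differences, among those with at least 20 CPM in the higher layer, were not the classic markers. On the basal side 5 of the 12 had no luminal count at all, so their difference is a lower bound against 3 counts over both luminal libraries. Lep (Entrez 16846, chr6:29060221-29073876), which encodes leptin, the hormone best known from adipocytes, was at 58.5 and 40.7 CPM in basal cells and was at least 436-fold higher there. Nipal4, a putative magnesium transporter, was at 41.9 and 36.2 CPM and at least 342-fold higher. Spock3, a matrix proteoglycan, was at least 258-fold, Efcab1 at least 222-fold and Ccdc153 at least 218-fold higher. None of these 5 is a keratin or a contractile gene. Their bounds do not show a larger separation than that of the contractile gene Cnn1 (log2 9.55). Wif1, a secreted WNT inhibitor, was at 101 and 101 against 0.0764 and 0.0757 CPM, a ratio of 1323 with a counting interval of 366 to 10931. Ackr4, a scavenger receptor for chemokines, was at 126 and 129.9 against 0.0764 and 0.151 CPM, and Rtn1, a reticulon, at 129 and 139.7 against 0.153 and 0.0757 CPM. Jph2, a junctophilin that couples calcium channels to calcium stores in muscle, was at 230.5 and 228 against 0.153 and 0.303 CPM (log2 9.94 (SE 0.35)).

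On the luminal side the largest differences were those of Wfdc12, Muc4, Tph1 and Bmp3. Muc4, a membrane mucin, was at 46.2 and 45.3 CPM in luminal and 0.0448 and 0.04596 CPM in basal cells, a ratio of luminal to basal of 1008 with a counting interval of 278 to 8334. Tph1, the rate-limiting enzyme of serotonin synthesis, was at 124 and 106 against 0.134 and 0.138 CPM (log2 -9.66 (SE 0.37)). Slc5a1, a sodium-glucose cotransporter, was at 74.95 and 86.1 against 0.179 and 0.276 CPM (log2 -8.44 (SE 0.24)). These genes fell below the share that milk proteins kept in basal libraries: each was at less than 0.345% of its luminal level. Tmprss6, a membrane protease, differed by -8.37 (SE 0.57), and the water channel Aqp5 was at 17.4 and 26.4 against 0.0896 and 0.04596 CPM.

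Markers of other cell types moved with some of these results. All 8 endothelial markers were higher in basal libraries (summed level 105 and 126 CPM against 22.1 and 25.6; median log2 2.41), Cdh5 at 24.1 and 26.9 against 4.36 and 4.92 CPM among them. Of 7 pericyte markers 6 were higher in basal libraries (sums 382 and 325 against 112 and 122), with Rgs5 at 14.7 and 13.8 against 0.993 and 0.606 CPM. The exception was Notch3 (log2 -2.32), whose luminal levels, given above, made up most of the luminal sums. The sum of the basal markers, which include the smooth muscle genes Acta2, Myh11 and Cnn1, was 48244 and 41066. Sums over different genes do not measure the share of a cell type. Of 8 fibroblast markers 3 were higher in basal libraries and 5 not called (sums 499 and 434 against 119 and 130.4), most of it Dcn, decorin, at 316 and 271 against 8.79 and 12.9 CPM. The fibroblast count was 8 under library size alone, 5 with the replicate block or with lactating libraries only, and 2 without luminal library 1, luminal library 2 or basal library 1. Against pregnancy 7 of the 8 changed toward luminal, and none under library size alone. The 4 tested adipocyte markers were higher in basal libraries (sums over the 7 markers 327 and 299 against 20.5 and 22.5). They include Lep and Plin4 (158 and 142 against 1.605 and 1.74 CPM), while the defining marker Adipoq was at 0.314 and 0.322 CPM in basal libraries. Leukocyte markers were near 0 in both layers (sums 9.32 and 4.18 against 14.2 and 8.18), and 3 of 7 were called higher in luminal libraries. Under library size alone 1 was called in each direction. Of 5 Schwann cell markers tested, 2 were higher in luminal and 1 in basal libraries (sums 141 and 169.7 against 199.6 and 211), and under library size alone 2 and 3 were. No erythroid marker was called, but 2 were higher in basal libraries under library size alone. The part that vessel, pericyte, fibroblast and adipocyte cells have in the matrix, integrin, Notch, WNT and TGF-beta results was not tested.

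The basal-luminal difference itself changed with the stage. In pregnant glands 69.9% of genes were called between the layers and in virgin glands 62.8%. Against pregnancy it changed in 5787 genes (36.2%), toward basal in 2869 (18.0%) and toward luminal in 2918 (18.3%), and against the virgin gland in 7876 genes (49.3%), 4195 (26.3%) and 3681 (23.1%). These are interaction tests of the same fit: a positive value means that basal minus luminal was larger in lactation. Library size alone gave 7920 and 1012 genes against pregnancy and 10261 and 1117 against virgin. It moved the median of all genes by 0.80 and 1.15 on the log2 scale. Counts under that setting therefore stand beside most of the lists below. Another scaling, by relative log expression, gave 43.3% of the pregnancy calls as positive, against 49.6%.

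**Figure D4:**
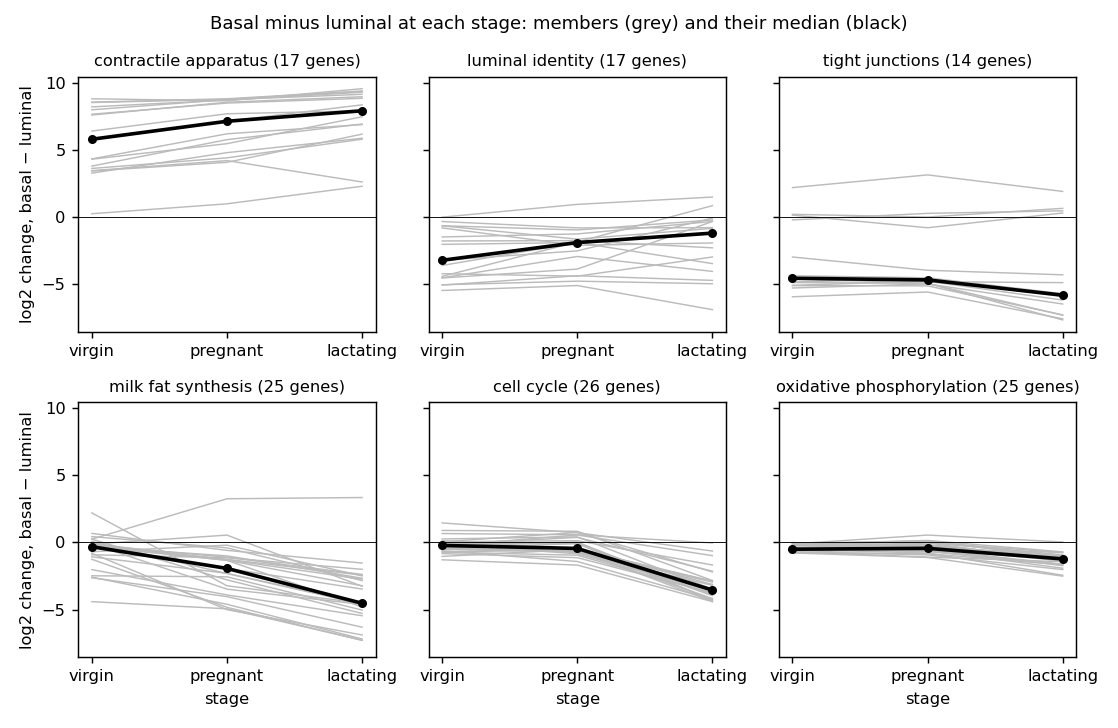
Log2 difference, basal minus luminal, in virgin, pregnant and lactating glands for 6 gene lists; grey lines are member genes and the black line their median. The cell cycle median is -0.23, -0.45 and -3.55 over the 3 stages, and that of milk fat synthesis -0.32, -1.94 and -4.53.

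Cell cycle genes were close to level between layers before lactation, with medians of -0.23 in virgin and -0.45 in pregnant glands. All 26 changed toward luminal against pregnancy and 25 against virgin (23 and 21 under library size alone). Mki67 was at 79.97 and 55.5 CPM in pregnant and 358 and 318 CPM in lactating luminal libraries, and at 46.8 and 38.9 and then 22.5 and 14.8 CPM in basal ones. The luminal layer was higher in lactation than before and the basal layer lower, and the interaction against pregnancy was -3.52 (SE 0.27).

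Milk fat genes parted between the layers with lactation, 24 of 25 against pregnancy and 23 against virgin (18 and 22 under library size alone). Fasn was level in virgin glands, at 339 and 276 CPM in basal and 281 and 240.3 CPM in luminal libraries (0.24 (SE 0.17)). Its basal level stayed near there, at 266 and 239.5 CPM, while the luminal level reached 9224 and 10508, and the interaction against virgin was -5.53 (SE 0.25). Egf and Atp2b2 followed the same course, with differences of -0.14 and 0.12 in virgin glands and interactions of -6.02 (SE 0.37) and -7.81 (SE 0.68). In oxidative phosphorylation 23 of 25 genes changed toward luminal against pregnancy and 0 toward basal, but under library size alone 6 and 2 did. In the endoplasmic reticulum list 21 of 26 changed toward luminal and 2 toward basal. Under library size alone that balance turned, with 4 toward luminal and 5 toward basal.

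All 14 milk protein genes had a larger luminal excess than in pregnancy (13 under library size alone), Csn2 by -2.26 (SE 0.46). Their basal counts were 0.992 and 0.909% of the luminal mean in lactation and 3.99 and 2.55% in pregnancy. Subtracting that share of the luminal counts from every basal library removes the basal milk protein counts by construction, so the 3 calls left among the 14 say nothing of them. For other genes with few basal counts the subtraction left little to test. Against pregnancy 8 tight junction genes had changed toward luminal and 2 toward basal, and under library size alone 5 and 4 did. After the subtraction none of these 8 stayed called, although Cldn7 was at -8.02 and Ocln at -3.22. Prlr went from -2.54 (SE 0.35) to -1.52 without a call. With the subtraction 26 cell cycle and 22 milk fat genes were called toward luminal.

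The contractile list moved toward basal in 12 of 17 genes against virgin and in none toward luminal (median 5.79 in virgin glands), and against pregnancy in 6 and none; under library size alone 15 moved toward basal against either stage. Of the 7 pericyte markers 3 moved toward basal against virgin (median interaction 1.48) and 1 against pregnancy, and their part in the contractile result was not tested. Oxtr was at 375 and 265 CPM in virgin, 339.5 and 523 CPM in pregnant and 1613 and 1729 CPM in lactating basal libraries, with 38.6 and 44.5 CPM in pregnant luminal ones. The lactating basal libraries stood above all others, and the interaction was 3.06 (SE 0.34) against pregnancy and 2.01 (SE 0.34) against virgin. Tnni2, the inhibitory troponin of fast skeletal muscle, was at 0.959 and 2.14 CPM in pregnant and 99.1 and 66.4 CPM in lactating basal libraries, and below 1 CPM in every luminal library (interaction 5.57 (SE 1.13)). Integrin genes moved toward basal in 14 of 21 cases against virgin and toward luminal in 3 (19 and 0 under library size alone), Itga2 by 7.07 (SE 0.36). Ccn2, of the YAP list in which 9 of 14 genes moved toward basal against pregnancy and none toward luminal (13 and none under library size alone), was lower in lactation than in pregnancy in both layers. It went from 3019.8 and 3357 to 638 and 949 CPM in basal and from 385 and 610.3 to 3.21 and 4.62 CPM in luminal libraries, an interaction of 4.98 (SE 0.38). The summed level of the YAP list, which counts Ccn2, went from 5444 and 5866 to 2790 and 3241 CPM in basal libraries. In luminal libraries it went from 1962 and 3031 to 579 and 544 CPM. As Ccn2 is a large part of the basal sums, their fall is not a result separate from that gene.

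**Figure D5:**
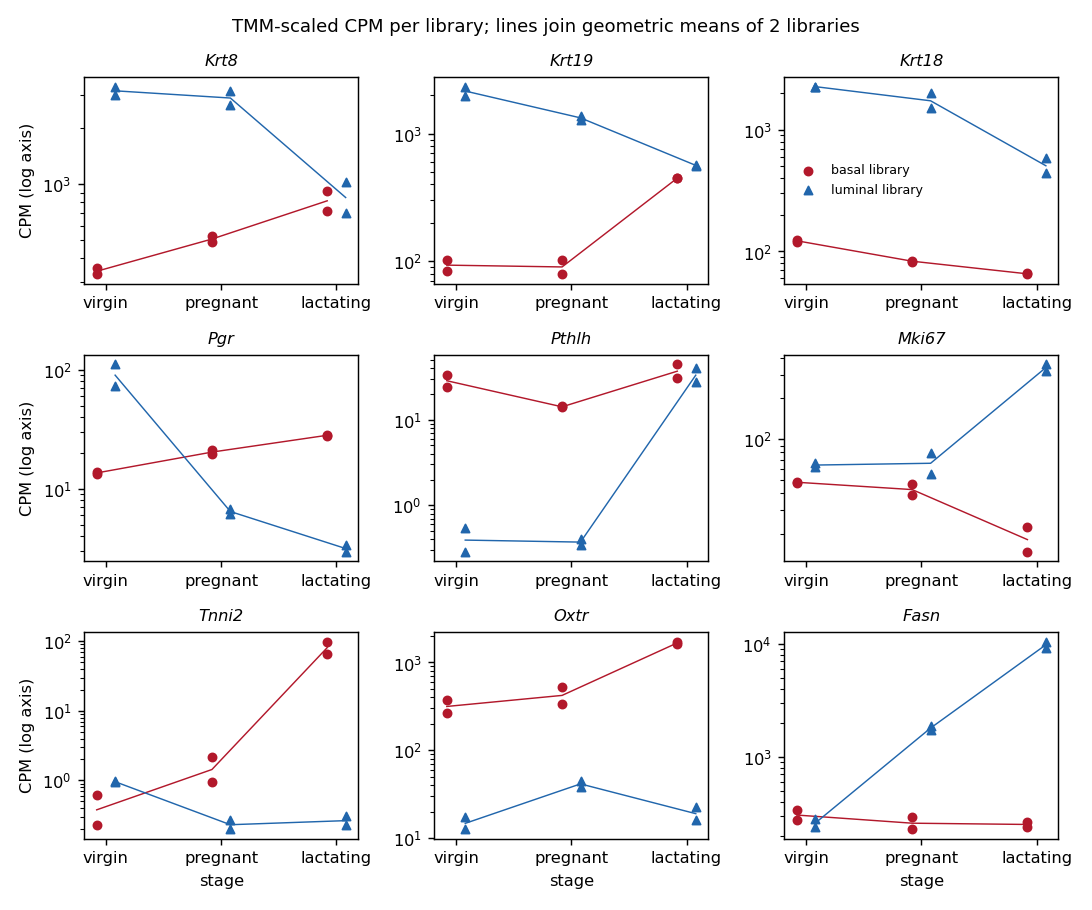
Levels of 9 genes (TMM-scaled CPM, log axis) in each library of virgin, pregnant and lactating glands; circles are basal and triangles luminal libraries, and lines join geometric means of 2 libraries. The luminal and basal levels of Krt8 and Krt19 meet in lactation, those of Pgr cross, and those of Fasn and Mki67 part.

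The levels of Krt8 and Krt19 converged from both sides. Krt8 was at 3001 and 3336 CPM in virgin luminal libraries and 329 and 355 CPM in virgin basal ones (-3.21 (SE 0.20)), and the interaction against virgin was 3.14 (SE 0.27). Krt19 was at 1989.6 and 2342 CPM in virgin luminal and 103 and 84.3 CPM in virgin basal libraries, with an interaction of 4.20 (SE 0.22). Luminal levels were lower and basal levels higher in lactation than in virgin glands in both genes. Krt18 kept more of its difference (-4.21 in virgin and -2.97 in lactating glands), with an interaction of 1.24 (SE 0.22). Over all genes, library size alone moved the interactions against virgin by a median of 1.15 in that same direction, so the size of this value depends on the scaling. The luminal identity list had a median of -3.21 in virgin glands, then -1.90 with pregnancy and -1.19 with lactation.

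Some genes changed sides. From a luminal excess in virgin glands to a basal excess in lactation went 512 genes (3.21% of those tested), and 372 (2.33%) went the other way. Pgr was at 72.9 and 112 CPM in virgin luminal and 13.9 and 13.4 CPM in virgin basal libraries, the reverse of its order in lactation, with an interaction of 5.92 (SE 0.27). Krt6a, a keratin of stressed or sheath epithelia, went from -2.14 in virgin to 5.85 in lactating glands, with reads that its near copy Krt6b may share. St6gal1, a sialyltransferase that acts on secreted glycans, went from the basal side (2.11), at 51.8 and 52.4 against 13.2 and 10.9 CPM, to the luminal side at 18.9 and 23.9 against 897 and 961 CPM. Lpo, lactoperoxidase, an antibacterial enzyme of milk, went from 2.89 to -5.99. Pthlh, the parathyroid hormone-related peptide that luminal cells release in lactation, was at 0.403 and 0.345 CPM in pregnant and 27.4 and 39.9 CPM in lactating luminal libraries, while basal libraries were at 13.9 and 14.4 and 30.4 and 44.5 CPM. It was a basal gene in virgin and pregnant glands and was not called in lactation (0.16 (SE 0.22)), although called at 1.16 under library size alone. Its interaction against pregnancy was -5.06 (SE 0.45). Pthlh thus did not change sides.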

How the data were processed

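Counts were analysed of 27179 genes in 12 RNA-seq libraries (6 groups, 2 libraries each). The count values are whole numbers that the authors deposited per gene and library. Per the submitters' processing notes, they used CASAVA 1.8.2, Subread 1.4.4 and featureCounts with GRCm38/mm10; the sources used here do not state strand or multiple mapping, so antisense and near-identical genes cannot be told apart, and 12 of the 274 named genes share over 20% of exon bases with another gene. Symbols were found for 25275 identifiers; the other 1904 (0.539 to 1.37% of counts) are not named. Library totals were 20015386 to 24723827.

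A single edgeR 4.0.16 model (R 4.3.3; filterByExpr with a minimum count of 10, TMM, quasi-likelihood F test, 6 group means, 6 residual degrees of freedom, common biological variation 11.6%) covered 15969 genes, with p-values adjusted over all of them by Benjamini-Hochberg. The method was tested on simulated data in which few genes differed between the lactating layers. That test cannot show how the scaling behaves here, where 74.6% of genes were called. A group of 2 libraries leaves the spread to be shared across groups, and p-values measure the spread between these libraries. Counting intervals (95%) and the floor of 3 counts cover counting error only. Members and lists were chosen with earlier results of these data known. Named were: the 12 largest differences per direction with at least 20 CPM and no overlap; in each list the 4 largest, the key genes and up to 3 that went against the rest; the 8 largest stage interactions and switches per direction. A further 11 genes were chosen after their values were seen. Some genes that the rule names are not reported here. Lists of 42 kinds (31 pathway, 11 marker) were used.

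Same-numbered basal and luminal libraries of a stage deviated together (correlations over 9193 genes 0.250 in virgin, 0.349 in pregnant and 0.181 in lactating glands). Between groups of different stages the values ran from -0.281 (basal virgin with basal lactating) to 0.155 (basal virgin with basal pregnant). The same-stage values were above 0.155, but those of virgin and lactating glands were smaller in size than -0.281. They therefore do not settle whether equal numbers mark 1 mouse, and no label states it. The replicate block took the numbers as pairs, and the main fit did not. Alternatives were other scalings, DESeq2 1.42.0, no filter, the replicate block, lactating libraries only, each library left out, and subtraction of the milk protein share of luminal counts.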

Additional observations from a re-analysis of the deposited data

Results flagged for a closer look

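The difference between basal and luminal cells changed with the stage, by the interaction test, in 5787 genes against pregnancy and 7876 against virgin. Values are changes of basal minus luminal on the log2 scale, lactation minus the earlier stage, for the genes with the largest changes. Toward basal cells against pregnancy lay Creb5 (5.62 (SE 0.27)), Tnni2 (5.57 (SE 1.13)), Nipal4 (5.51 (SE 1.45)), Efcab1 (5.20 (SE 1.66)), Ccn2 (4.98 (SE 0.38)), Pak3 (4.92 (SE 0.49)), Rspo1 (4.83 (SE 0.47)) and Arhgef28 (4.78 (SE 0.29)). Nipal4 and Efcab1 had no luminal count in lactation, so their values depend on the prior count; both lost the call without luminal lactating library 1 or 2. Toward luminal cells against pregnancy lay Pcp4 (-9.18 (SE 0.74)), Fer1l4 (-8.29 (SE 1.63)), Apod (-7.44 (SE 0.49)), Slc39a8 (-6.19 (SE 0.32)), Ddah1 (-5.08 (SE 0.42)), Ptafr (-5.07 (SE 0.81)), Gm20752 (-5.07 (SE 1.01)) and Pthlh (-5.06 (SE 0.45)). Fer1l4 had no basal count in lactation, so its value too depends on the prior count.

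Against virgin, the changes toward basal cells were those of Tnni2 (9.38 (SE 0.73)), 9530053A07Rik (8.55 (SE 0.53)), Krt6b (8.29 (SE 0.45)), Enho (8.12 (SE 0.39)), Krt6a (7.99 (SE 0.39)), Col11a1 (7.95 (SE 0.59)), Piezo2 (7.92 (SE 0.41)) and Ctnnd2 (7.86 (SE 0.53)). Toward luminal cells they were those of Serpinb11 (-10.58 (SE 0.88)), Lpo (-8.88 (SE 0.45)), Drd4 (-8.01 (SE 0.95)), Gsdmc (-7.89 (SE 2.19)), Car4 (-7.83 (SE 0.93)), Atp2b2 (-7.81 (SE 0.68)), Rgs8 (-7.79 (SE 1.11)) and St6gal1 (-7.55 (SE 0.21)). Gsdmc lost its call without basal virgin library 1 (-4.97). Genes that also changed sides between the layers included Gcnt4 (7.68 (SE 0.75)), Ly6d (7.36 (SE 0.52)) and Npr3 (7.31 (SE 0.61)) toward basal cells. Slc7a8 (-7.03 (SE 0.41)), Adamts5 (-7.14 (SE 0.33)), Ccn3 (-7.32 (SE 0.55)) and Radil (-6.91 (SE 0.68)) changed to the luminal side. Serpinb11 and Gcnt4 rest on 1 to 3 counts in 1 layer in lactation.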

How the results depend on the processing

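Of 274 named genes, 246 kept direction and side of the threshold under every alternative run for day 2 lactation. Library size alone moved most: it gave 10205 genes higher in basal and 2529 higher in luminal cells, 8932 stage interactions against pregnancy (7920 and 1012) and, against virgin, 10261 and 1117 in the 2 directions. It turned the sign of 12 named genes that were called in the main fit, under this setting or in both. They were Krt8 (0.92), Gata3 (0.21), Nid2 (0.52), Notch1 (0.87), Smad3 (0.10), Hspa5 (0.54), Mcl1 (0.81), Bcl2l1 (0.50), Fosl2 (0.59), Irs1 (0.49), Krt19 (0.66) and Pcna (0.95). Gata3 and Smad3 were not called under this setting. Krt8, Notch1, Mcl1, Krt19 and Pcna were not called in the main fit. By construction this setting leaves the milk protein counts in the total. The other settings changed no count of called genes by more than 1.5 times (11552 by DESeq2; 10884 to 11022 with a library left out). With the replicate block 12077 genes were called in lactation, and of the named genes Krt19 and Rspo1 gained a call and no other changed. Depth limits genes with few counts in a layer, whose differences are given as bounds or ratios.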

Other observations

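Of 12 genes of IGF and insulin signalling, 8 were higher in basal cells, 3 higher in luminal cells and 1 not called (median 1.49). Igfbp2 was at 1167 and 1135 CPM in basal and 1.76 and 1.89 CPM in luminal libraries (log2 9.30 (SE 0.25)), and Igfbp3 at 247 and 244 against 2.67 and 2.73 CPM (log2 6.50 (SE 0.24)). Igfbp5, known for its rise in involution, was high in both layers, at 1757 and 1915 against 678 and 704 CPM (log2 1.41 (SE 0.23)). Of 15 matrix proteases and inhibitors, 10 were higher in basal cells, 2 higher in luminal cells and 3 not called (median 3.85), with Adamts1 at 2058 and 2273 against 21.8 and 29.2 CPM (log2 6.41 (SE 0.24)). Timp1, an inhibitor, was on the luminal side (-2.36 (SE 0.30)).

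Defence genes divided by layer, 11 of 18 higher in luminal cells, 6 higher in basal cells and 1 not called (median -2.47). The acute phase gene Saa1 was at 887 and 868 CPM in luminal and 7.57 and 5.75 CPM in basal cells (log2 -7.04 (SE 0.41)). The chemokine Cxcl14 was at 4355 and 4453 against 10.1 and 10.98 CPM on the basal side (log2 8.71 (SE 0.36)), and Ccl2 differed by 4.43 (SE 0.35). Of 19 immediate early genes, 12 were higher in basal cells, 2 higher in luminal cells and 5 not called (median 0.93), and 18 and 0 were under library size alone. Egr3 was at 199.9 and 257 against 2.29 and 3.86 CPM (log2 6.21 (SE 0.26)), and Nr4a1 at 738 and 1256 against 69.5 and 83.2 CPM (log2 3.71 (SE 0.24)). Fos was high in both layers, at 3846 and 6507 against 2152 and 3336 CPM, and its difference (0.92 (SE 0.28)) lost its call without luminal library 1 (0.59) or basal library 2 (0.49).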
